A study of Rattus norvegicus with 8 samples.

Results

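The step from epiblast-like cells (EpiLC) to day 3 primordial germ cell-like cells (PGCLC_d3) is the point at which cultured rat cells take up the germ cell fate, and 2 PGCLC_d3 libraries were set against 2 EpiLC libraries across all 22228 named genes of the expression table, out of 8 libraries in the series. Such cells model in a dish the embryonic cells from which sperm and eggs descend. PGCLC_d3 were EpiLC aggregates of rat strain Crlj:WI cultured for 3 days with BMP4 at 500 ng/ml, rat LIF at 1000 U/ml, SCF at 100 ng/ml and EGF at 50 ng/ml, and then sorted by flow cytometry for the red reporter Nanos3-T2A-tdTomato. EpiLC were aggregates made from embryonic stem cells (ESC) over 60 h with activin A at 20 ng/ml, bFGF at 12 ng/ml and 1% KSR, a serum substitute, and no reporter sort is described for them. ESC, on mouse feeder cells with 2i inhibitors and LIF, are given beside some genes as the cells from which EpiLC were made. The fourth group, PGCLC_d3ag3, was made like PGCLC_d3 and then taken to day 3 of a further aggregation. Its 2 libraries, like those of ESC, enter the choice of tested genes and the estimate of spread. The genotype is listed as wild type in every group although the sort needs the reporter allele, and the labels do not say whether the replicates were separate cultures, so the p-values reflect only how far these libraries spread, which may be technical.

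In the mouse embryo, BMP signals from tissue beside the epiblast, together with WNT, turn a few epiblast cells into primordial germ cells. These cells switch on the repressor BLIMP1 (Prdm1) with PRDM14 and AP2γ (Tfap2c), close down the somatic programme that the same signals start, regain part of the naive pluripotency network and lose DNA methylation. The genes of later germ cell life, which build sperm and eggs, are held back by DNA methylation and by the repressive complex PRC1.6 until the cells reach the gonad.

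Expression was deposited as log2(TPM+1), where TPM is a read count scaled by gene length and then by the library's total. Differences below are PGCLC_d3 minus EpiLC on that log2 scale with its pseudocount of 1, which understates the change of genes with low values. A gene is said to rise or fall where the limma adjusted p is under 0.05 and the log2 difference is at least 1 in size. The 13571 genes tested were those that reached TPM 1 in 2 or more of the 8 libraries. Of them 2542 rose and 1470 fell. These shares, 18.7% and 10.8%, are the background for each count of risen and fallen genes below, except for rescaled counts. At an adjusted p under 0.05 alone, 6424 genes were higher and 3747 lower, 74.9% of those tested, which is why size is used beside the test. Of these, 736 rises and 479 falls were of at least 2, 296 and 177 of at least 3, 128 and 61 of at least 4, and 15 and 6 of at least 6.

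The median tested gene was itself higher in PGCLC_d3, by 0.21 on the log2 scale. After median-of-ratios rescaling of the libraries that median was -0.02, 1915 genes rose and 1912 fell, and the share of genes under adjusted p 0.05 that were higher was 49.2% instead of 63.2% (50.8% after quantile normalization). Where a list's counts moved with this scaling, the rescaled counts follow them. The background for rescaled counts is 14.1% risen and 14.1% fallen. Replicates lay close together, with a Pearson r across tested genes of 0.9975 in PGCLC_d3 and 0.9968 in EpiLC. TPM keeps no read totals, but the smallest steps between values put the depth of the PGCLC_d3 libraries at 1.13 and 0.981 times that of EpiLC replicate 1, and that of EpiLC replicate 2 at 1.29 times. In PGCLC_d3 12217 and 12225 genes reached TPM 1, and in EpiLC 11879 and 11844. In bulk libraries, fewer cells of a type and less RNA per cell cannot be told apart, and with a sort in PGCLC_d3, change within cells and choice of cells cannot be told apart either.

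**Figure D1:**
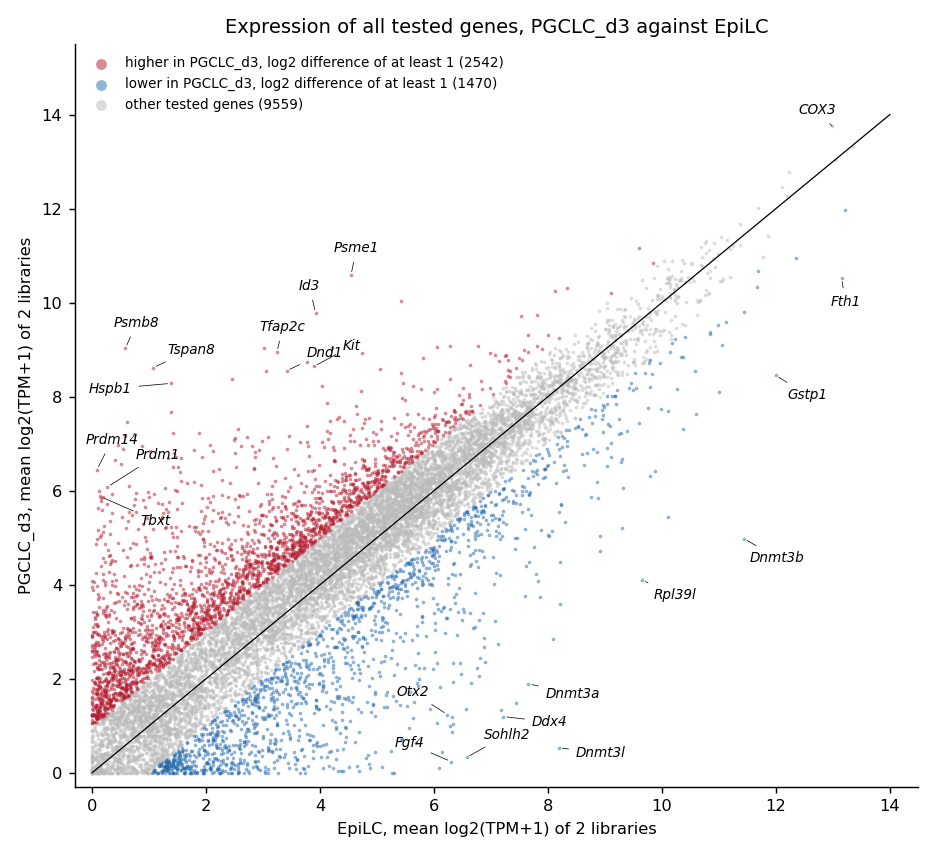
Mean log2(TPM+1) of the 2 PGCLC_d3 libraries (vertical axis) against that of the 2 EpiLC libraries (horizontal axis) for 13571 tested genes, with the 2542 that rose in red, the 1470 that fell in blue and the line of equal values in black. Psmb8, Tspan8 and Prdm14 stand far above the line, and Dnmt3l, Dnmt3b and Ddx4 far below it.

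Most germ cell specification genes came up. Of 20 tested members 15 rose and 4 fell, with a median difference of 3.35 against 0.21 over all tested genes, and 14 and 4 after rescaling. The 3 transcription factors at the head of the programme stood apart from EpiLC in both libraries. Prdm1 had 67.6 and 65.4 TPM in PGCLC_d3, against 0.142 and 0.266 TPM in EpiLC. Prdm14 was measured at 88.7 and 83.4 TPM in PGCLC_d3 and 0 and 0.123 TPM in EpiLC, and at 16.3 and 17.5 TPM in ESC. For Tfap2c the values were 487 and 498 TPM in PGCLC_d3 and 8.22 and 8.71 TPM in EpiLC. Prdm1 and Prdm14 thus lay under 0.5 TPM in both EpiLC libraries, whereas Tfap2c was already at a low level there. The differences were 5.81 (SE 0.119) for Prdm1, 6.36 (SE 0.107) for Prdm14 and 5.70 (SE 0.062) for Tfap2c, each with a limma adjusted p of at most 3.38e-10.

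Receptors and RNA-binding proteins of early germ cells rose as well. Cxcr4, the chemokine receptor that guides migrating germ cells, had 50.1 and 46.8 TPM in PGCLC_d3 and 0 and 0.141 TPM in EpiLC (5.53). Kit, the receptor for the SCF in the medium, had 398 and 399 TPM in PGCLC_d3 and 12.8 and 15 TPM in EpiLC (4.75). Dnd1, which protects germ cell transcripts from microRNAs, stood at 372 and 375 TPM in PGCLC_d3, against 11.1 and 8.38 TPM in EpiLC (5.14). Each of these 3 genes separated the groups without overlap. With 2 libraries a group this does not set a gene apart, here or below. Genes with small differences such as Hells (-0.09) and Mga (-0.05) also separated the groups, and the share over all tested genes was not counted. Nanos3, the gene whose reporter was used for the sort, reached 11 and 10.7 TPM in PGCLC_d3, against 0.702 and 0.905 TPM in EpiLC (2.72), so its rise is part of how the cells were picked. Alpl, the alkaline phosphatase long used to stain germ cells, had 60.1 and 64.9 TPM in PGCLC_d3 and 10.1 and 9.61 TPM in EpiLC (2.55), below the 273 and 311 TPM of ESC. Dppa3 (3.53), which protects methylation marks in the early embryo, Elf3 (2.80), an epithelial transcription factor, and Sall4 (1.18), a zinc finger factor of stem and germ cells, also rose, Sall4 by 0.91 after rescaling. Dppa3 had 375 and 389 TPM in PGCLC_d3, below the 1312 and 1306 TPM of ESC.

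Members that fell were Lin28a (-1.70), the RNA-binding protein that blocks let-7 microRNAs, Klf2 (-1.43), Pecam1 (-1.42) and Dppa5 (-1.86). Lin28a had 175 and 157 TPM in PGCLC_d3, against 538 and 547 TPM in EpiLC, and its relative Lin28b, 33.2 and 36.1 TPM in PGCLC_d3 and 73 and 77.8 TPM in EpiLC (-1.10). Pou5f1, which encodes OCT4, was at 181 and 191 TPM in PGCLC_d3 and 289.8 and 265 TPM in EpiLC, a difference of -0.57 (95% interval -0.70 to -0.44), under the size used for a fall.

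Genes of the naive pluripotency network rose in part. Their summed TPM was 6578 and 6585 in ESC, 364 and 323 in EpiLC and 1095 and 1149 in PGCLC_d3, though single members departed from this pattern. Of 16 members 10 rose and 5 fell (median 2.47), and the rescaled counts were the same in number. Nr5a2, a nuclear receptor, had 31.6 and 31.2 TPM in PGCLC_d3, against 0.0792 and 0.123 TPM in EpiLC and 2.96 and 3.01 TPM in ESC. Nr0b1, which encodes DAX1, had 29 and 31.6 TPM in PGCLC_d3 and 0.116 and 0 TPM in EpiLC, and was listed at 0 in both ESC libraries. Both receptors stood above ESC as well, by 3.02 and 4.97 on the log2 scale. Esrrb, a naive factor of the same receptor family, was at 20.5 and 20.1 TPM in PGCLC_d3, against 0.968 and 0.527 TPM in EpiLC and 111 and 125 TPM in ESC, so it rose (3.62) but stayed -2.48 from ESC. Gbx2 (3.97) and Klf5 (1.76) rose likewise, and Tbx3, at 3.17 and 3.29 TPM in PGCLC_d3 and 0.5 and 0.344 TPM in EpiLC, remained far under the 336 and 349.7 TPM of ESC. Other naive genes went the opposite way. Zfp42, the classic marker REX1, had 3.67 and 4.48 TPM in PGCLC_d3 and 84.4 and 74 TPM in EpiLC (-3.98). Tfcp2l1 had 0.275 and 0.141 TPM in PGCLC_d3 and 4.05 and 3.75 TPM in EpiLC (-2.02). Tdh, the threonine dehydrogenase of naive cells, was at 2.94 and 2.65 TPM in PGCLC_d3 and 13.7 and 10.8 TPM in EpiLC (-1.80), against 679 and 687 TPM in ESC. These 3 fell below a level that was already far under that of ESC.

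**Figure D2:**
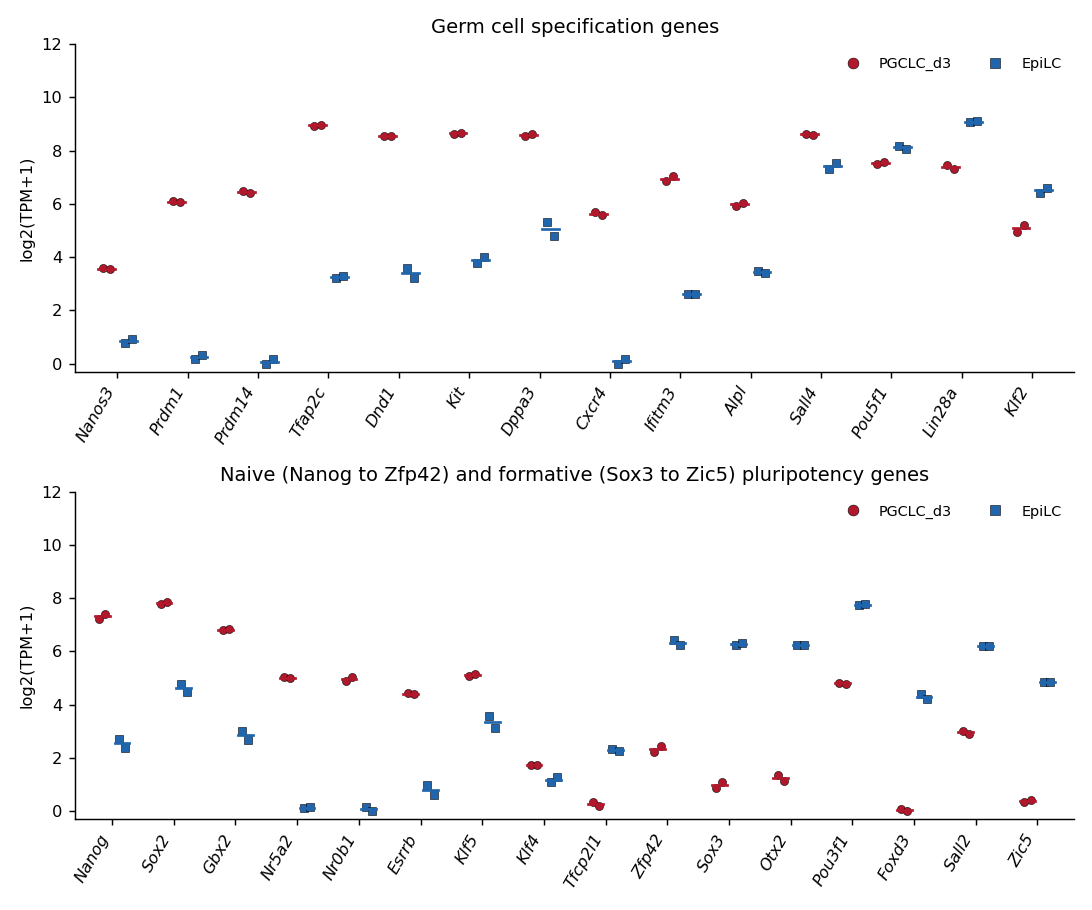
Log2(TPM+1) of germ cell specification genes (top) and of naive and formative pluripotency genes (bottom), with PGCLC_d3 libraries as red circles left of the EpiLC libraries as blue squares and short lines at the group means. Prdm1, Prdm14 and Cxcr4 were near 0 in EpiLC, and naive genes split into those above EpiLC (Nanog to Klf5) and those below it (Tfcp2l1, Zfp42).

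Genes of the formative and primed epiblast fell in 12 of 20 tested members and rose in 4 (median -2.53; 13 and 4 after rescaling). Transcription factors were among the falls. Sox3 had 0.854 and 1.14 TPM in PGCLC_d3, against 74.5 and 79.6 TPM in EpiLC (-5.29). Zic5 had 0.263 and 0.326 TPM in PGCLC_d3 and 27.9 and 27.5 TPM in EpiLC (-4.47), against 52.4 and 51.8 TPM in ESC. Foxd3, a forkhead factor of the epiblast, had 0.0585 and 0 TPM in PGCLC_d3 and 20.2 and 17.4 TPM in EpiLC (-4.26), against 32.6 and 27.5 TPM in ESC. In both PGCLC_d3 libraries these genes were at or under 1.5 TPM. Pou3f1 (-2.95), Sall2 (-3.22), Grhl2 (-3.25) and Sox4 (-2.83) fell too, while Utf1, a chromatin factor of pluripotent cells, remained among the stronger transcripts with 1432 and 1504 TPM in PGCLC_d3 and 1865 and 1813 TPM in EpiLC (-0.33). The ETS factors Etv4 (4.91) and Etv5 (1.43), which lie downstream of FGF and ERK, were members that rose. Fgf5, too low to be tested, was listed at 0 and 0 TPM in PGCLC_d3 and 0.0747 and 0 TPM in EpiLC. Of 14 general pluripotency genes 8 fell and 2 rose (median -1.17; 8 and 1 after rescaling), with Zfp281 (-1.23) and Epcam (-1.24) among the falls.

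BMP4 was among the factors added to the medium, and genes known as targets of its SMAD effectors rose almost without exception. Of 19 tested members 18 rose and 0 fell (median 3.72; 17 and 0 after rescaling). Sp5, a member, is also given below with the WNT targets, and the part of BMP4 in these rises was not tested. Hey1, a transcriptional repressor, had 66 and 68.9 TPM in PGCLC_d3, against 0.519 and 0.604 TPM in EpiLC (5.45). Smad6, which feeds back to damp BMP signalling, had 51.7 and 58.3 TPM in PGCLC_d3 and 0.856 and 0.851 TPM in EpiLC (4.92). Bambi, a decoy receptor, had 217 and 246 TPM in PGCLC_d3 and 17.2 and 15.5 TPM in EpiLC (3.74). For all 3 genes the groups were far apart. Id2 (3.00) and Id4 (3.70), which block differentiation factors of the bHLH class, rose with them, and the member that did not reach that size was Tfap2a, at 0.267 and 0.277 TPM in PGCLC_d3 and 0.0303 and 0 TPM in EpiLC (0.33).

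The ligands of the pathway shifted in make-up, its receptors and SMADs little. Of 18 such genes 4 rose and 3 fell (median 0.48). Bmp7 had 123 and 122 TPM in PGCLC_d3, against 0.878 and 0.791 TPM in EpiLC (6.07). Endogenous Bmp4 had 72.6 and 68.5 TPM in PGCLC_d3 and 6.11 and 6.94 TPM in EpiLC (3.25), whereas Bmp2 had 1.13 and 0.909 TPM in PGCLC_d3 and 7.4 and 9.57 TPM in EpiLC (-2.23). PGCLC_d3 thus carried more Bmp7 and Bmp4 and less Bmp2 RNA than EpiLC. The receptor Acvr1 rose (1.71), and Bmpr1a (0.58), Bmpr2 (0.83), Smad1 (0.48), Smad5 (0.48) and Smad4 (0.36) were higher by less than 1. Smurf1, a ubiquitin ligase that marks SMADs for breakdown, and Chrd, which encodes the antagonist chordin, fell (-1.37 and -1.50).

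LIF, SCF and EGF were the other added factors. Of 19 members of the LIF and STAT3 pathway 14 rose and 2 fell (median 1.31; 11 and 3 after rescaling). Socs3, the feedback inhibitor that STAT3 switches on, had 80.9 and 88.8 TPM in PGCLC_d3, against 3 and 3.73 TPM in EpiLC (4.30). Pim1, a survival kinase, had 167 and 188 TPM in PGCLC_d3 and 19.9 and 21.1 TPM in EpiLC (3.05), and Bcl3, a STAT3 target, 11 and 14.2 TPM in PGCLC_d3 and 0.893 and 0.548 TPM in EpiLC (2.98). These feedback and target genes separated the groups without overlap, as genes with small differences also did. The shared receptor chain Il6st rose (1.35) and the LIF-specific chain Lifr fell, with 1.08 and 1.14 TPM in PGCLC_d3 and 3.69 and 3.83 TPM in EpiLC (-1.18), against 35.2 and 44.1 TPM in ESC. Of 11 tested SCF and EGF genes 6 rose and 0 fell (median 1.12; 5 and 0 after rescaling). Egfr, the EGF receptor, was too low to be tested, at 0.0189 and 0.0439 TPM in PGCLC_d3 and 0.0747 and 0.117 TPM in EpiLC, and Erbb2 was at 0.539 and 0.415 TPM in PGCLC_d3 and 0.87 and 0.862 TPM in EpiLC. Erbb3, a family member without an active kinase that pairs with others, had 48.8 and 47 TPM in PGCLC_d3, against 7.32 and 8.55 TPM in EpiLC (2.46). Kitlg, which encodes SCF itself, rose as well, to 25.5 and 24 TPM in PGCLC_d3, against 10.01 and 8.86 TPM in EpiLC (1.30).

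FGF signalling genes moved in both directions. Of 24 tested members 9 rose and 2 fell (median 0.66; 8 and 2 after rescaling). Fgf8, a ligand of the primitive streak, had 118 and 92.1 TPM in PGCLC_d3, against 5.05 and 7.77 TPM in EpiLC (3.85). Fgf4, the ligand of the inner cell mass and epiblast, had 0.119 and 0.241 TPM in PGCLC_d3 and 85.4 and 70.7 TPM in EpiLC (-6.06). The ligand pattern therefore turned over between the groups. Among receptors, Fgfr2 had 55.4 and 60.9 TPM in PGCLC_d3 and 2.14 and 5.01 TPM in EpiLC (3.76), and Fgfr3 57 and 62.7 TPM in PGCLC_d3 and 5.43 and 5.68 TPM in EpiLC (3.21). Fgfr1, the main epiblast receptor, was at 271 and 264 TPM in PGCLC_d3 and 169 and 167 TPM in EpiLC (0.67), and stayed the most abundant of the 4 receptors in both groups. Of the ERK feedback genes, Dusp4 (3.31) and Spry1 (2.27) rose, while Dusp6 (0.41), Spry2 (-0.10) and Spry4 (-0.14) were under the size used. Immediate early genes, which respond to growth factors and also to cell dissociation, rose in 12 of 20 and fell in 2 (median 1.25; 11 and 2 after rescaling), led by Btg2 (3.52), Dusp1 (3.11) and Fos (2.95). Their part in the FGF and LIF values was not tested.

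Activin, which drives the EpiLC state through the NODAL receptors, was not among the factors listed for the PGCLC_d3 medium. Of 18 tested members of that pathway 7 rose and 3 fell (median 0.76; 5 and 3 after rescaling). Nodal had 89.9 and 87.5 TPM in PGCLC_d3 and 51.2 and 61.2 TPM in EpiLC (0.66), and its target and inhibitor Lefty1 257 and 295 TPM in PGCLC_d3 and 158 and 198 TPM in EpiLC (0.64). Lefty2 had 87 and 117 TPM in PGCLC_d3 and 28.3 and 32.2 TPM in EpiLC (1.71). Neither the ligand nor these targets were lower in PGCLC_d3. The NODAL co-receptor gene Tdgf1 (-4.09), Tgif1, a repressor of SMAD2 targets (-2.98), and the ligand Gdf3 (-1.76) fell, and Tgfb1 rose, with 36 and 37.4 TPM in PGCLC_d3 and 1.7 and 1.87 TPM in EpiLC (3.76).

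No WNT ligand is listed in the medium, yet WNT ligand, receptor and target RNA rose. Of 22 tested ligands, receptors and secreted antagonists 11 rose and 2 fell (median 1.02; 11 and 2 after rescaling). Wnt3, the ligand that mouse epiblast needs to become competent for BMP, had 9.98 and 11.1 TPM in PGCLC_d3, against 0.131 and 0.0504 TPM in EpiLC (3.40). Wnt5a had 45.1 and 39 TPM in PGCLC_d3 and 0.757 and 1.13 TPM in EpiLC (4.47), and Rspo3, which keeps WNT receptors on the surface, 16.4 and 15.1 TPM in PGCLC_d3 and 0 and 0 TPM in EpiLC. All 3 were at or under about 1 TPM in EpiLC. The receptor Fzd10 had 50.0 and 44.3 TPM in PGCLC_d3 and 0.0966 and 0.15 TPM in EpiLC (5.42), and Wls, needed to secrete WNTs, 52.6 and 51.1 TPM in PGCLC_d3 and 5.86 and 9.74 TPM in EpiLC (2.62). Of 22 targets 13 rose and 2 fell (median 1.67; 12 and 3 after rescaling). Sp5 had 13.7 and 12.4 TPM in PGCLC_d3 and 0.0973 and 0.0374 TPM in EpiLC (3.72), and Axin2, often read as a measure of the pathway, was at 5.73 and 5.5 TPM in PGCLC_d3 and 2.78 and 2.07 TPM in EpiLC (0.96), just under the size used. Lgr5, an R-spondin receptor, fell (-1.86).

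Genes of the primitive streak and mesoderm rose in 13 of 16 tested members and fell in 1 (median 2.51; 13 and 1 after rescaling), and 8 others, among them Mixl1, Mesp2 and Tbx6, were too low to be tested. Several members, such as Msx1, Msx2 and Cdx2, also stand in the BMP or WNT lists, so these counts are not separate. Tbxt, the streak factor brachyury, had 64 and 52 TPM in PGCLC_d3, against 0.0468 and 0.164 TPM in EpiLC (5.73). Nkx1-2, a factor of the caudal epiblast, had 38.4 and 33.3 TPM in PGCLC_d3 and 0.224 and 0.871 TPM in EpiLC (4.60). Eomes, the other T-box factor of the streak, had 1.9 and 1.48 TPM in PGCLC_d3 and 45.8 and 44.4 TPM in EpiLC (-4.10). The 2 T-box genes thus moved in opposite directions. Mesp1, an early mesoderm factor, was at 2.14 and 1.4 TPM in PGCLC_d3 and listed at 0 in EpiLC. Of 13 tested HOX and CDX genes 2 rose, Cdx2 with 28.1 and 18.6 TPM in PGCLC_d3 and 0.0504 and 0.235 TPM in EpiLC (4.39) and Cdx1 (2.64), and none fell. Another 22 HOX genes were too low to be tested. The tested HOX genes themselves stayed near 1 TPM or below, for example Hoxa7 at 0.3 and 0.577 TPM in PGCLC_d3 and 0.793 and 0.703 TPM in EpiLC, against 102 and 92.4 TPM in ESC.

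Markers of other cell types were checked in short sets, and their part in the results above was not tested. In longer lists of the same cell types, 11 of 17 tested trophoblast and amnion genes rose and 4 fell (10 and 4 after rescaling). Of 10 endoderm genes 6 rose and 0 fell (6 and 0 after rescaling), and of 5 neural genes 4 rose and 0 fell (3 and 0 after rescaling). Of 15 fibroblast genes 2 rose and 9 fell (1 and 10 after rescaling). The 6 endoderm markers summed to 65.9 and 52.9 TPM in PGCLC_d3, against 2.13 and 2.17 TPM in EpiLC. Most of that sum was Sox17, with 57.5 and 45 TPM in PGCLC_d3 and 0.676 and 0.639 TPM in EpiLC (4.97), a factor that human germ cells also use. Foxa2 was at 2.15 and 2.18 TPM in PGCLC_d3 and 0.523 and 1.02 TPM in EpiLC and Gata6 at 2.9 and 2 TPM in PGCLC_d3 and 0.0338 and 0.026 TPM in EpiLC. The 7 trophoblast and amnion markers summed to 38.4 and 27.1 TPM in PGCLC_d3 and 5.76 and 4.33 TPM in EpiLC, mostly Cdx2, with Gata3 at 7.24 and 6.21 TPM in PGCLC_d3 and 0.0246 and 0.113 TPM in EpiLC and Elf5 under 0.1 TPM in PGCLC_d3. The 5 neural markers summed to 26.5 and 30.6 TPM in PGCLC_d3 and 4.96 and 4.59 TPM in EpiLC, nearly all of it Nes, while Sox1, Pax6 and Neurod1 were under 0.1 TPM in PGCLC_d3. The 8 fibroblast markers ran the other way, at 3.71 and 7.02 TPM in PGCLC_d3 and 43.9 and 82.6 TPM in EpiLC, with Dcn and Lum at 0 in PGCLC_d3. The 6 endothelial and blood markers summed to 20.8 and 19.7 TPM in PGCLC_d3 and 52.7 and 49.1 TPM in EpiLC, mostly Pecam1. The longer endothelial and blood list did not fall, with 64.2 and 58 TPM in PGCLC_d3 and 59.5 and 53.5 TPM in EpiLC. Of its 10 tested genes 3 rose and 2 fell (2 and 2 after rescaling). The longer trophoblast and amnion list summed to 749 and 700 TPM in PGCLC_d3 and 268 and 255 TPM in EpiLC. For the longer fibroblast list the sums were 49.7 and 44.6 TPM in PGCLC_d3 and 87.8 and 149 TPM in EpiLC. For comparison, the 7 germ cell markers summed to 1799 and 1820.0 TPM in PGCLC_d3, against 71.6 and 60.2 TPM in EpiLC, and the 5 epiblast markers to 461 and 474 TPM in PGCLC_d3, against 3267 and 3466 TPM in EpiLC. Most of the epiblast sum in EpiLC was Dnmt3b, with 2666 and 2887 TPM. Sox2, of the same set, rose instead, with 217 and 227 TPM in PGCLC_d3 and 26.5 and 21.2 TPM in EpiLC.

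**Figure D3:**
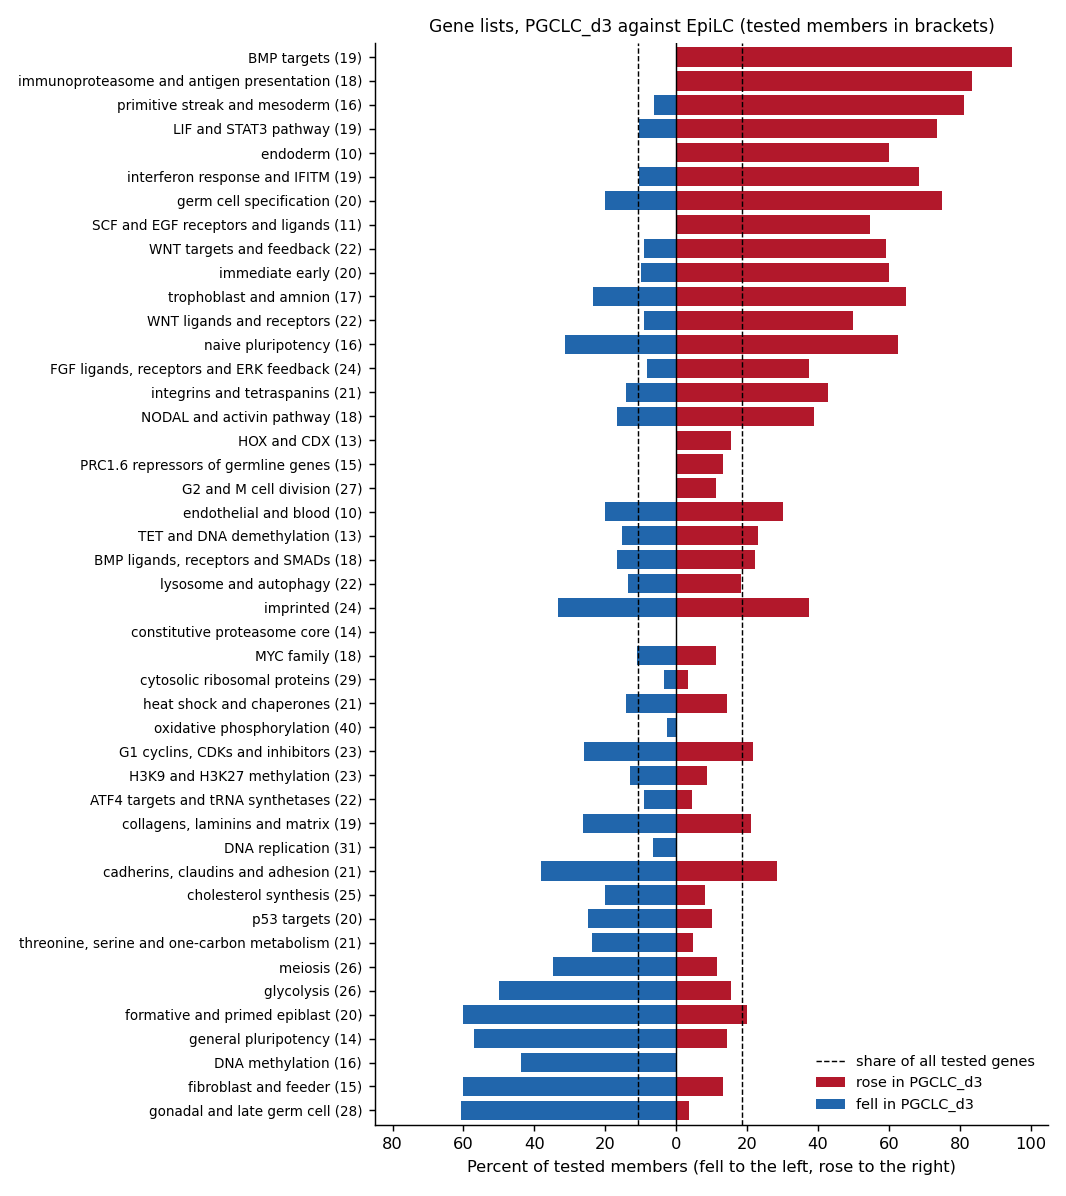
Percent of the tested members of each gene list that rose (red, to the right) or fell (blue, to the left) in PGCLC_d3 against EpiLC, with the number of tested members in brackets and dashed lines at the shares over all tested genes, 18.7% and 10.8%. BMP targets and the immunoproteasome list lie at the end of mostly risen members, and of the late germ cell genes 17 of 28 fell.

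Genes of the immunoproteasome, of antigen presentation and of the interferon response were among the largest rises. The immunoproteasome replaces 3 catalytic subunits of the standard proteasome and, with the PA28 activator, feeds peptides to class I molecules, usually after interferon. The short stretches of 3 promoters are shown because the genes behind them rose together and hold the GAAANNGAAA letters that interferon regulatory factors are known to bind, in capitals here. They are the stretches of 40 bases on either side of the match, or to the gene's start, 5′ to 3′ on the gene's strand, from RefSeq with build GRCr8: Tapbp at chr20:4967878-4967943 (minus strand), Bst2 at chr16:18255043-18255144 (minus strand; the capitals there also take in an overlapping TTCNNNGAA, the letters of STAT sites) and Psme2 at chr15:33052755-33052844 (minus strand).
Tapbp: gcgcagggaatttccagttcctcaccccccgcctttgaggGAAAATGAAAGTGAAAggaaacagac
Bst2: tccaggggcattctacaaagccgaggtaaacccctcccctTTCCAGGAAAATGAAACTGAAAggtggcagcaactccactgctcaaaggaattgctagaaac
Psme2: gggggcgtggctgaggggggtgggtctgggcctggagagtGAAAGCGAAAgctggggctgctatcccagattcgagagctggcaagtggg
The letters were searched on both strands in the 250 bases before the start of each gene and were chosen after the values were seen. They stood in 8 of 16 immunoproteasome and antigen presentation genes with a promoter (50%) and in 9 of 15 interferon response genes (60%), against 2.71% of 10272 tested genes with a promoter and 3.61% of all 27457. Of the 8 in the first list, 7 rose and 1 was untested, and of its 8 members without the letters 6 rose and 2 did neither. Psmb8, Psmb9 and Psme1 were among those that rose without the letters, as was Irf1 in the second list. Of the 9 interferon response genes with the letters 5 rose, 2 fell (Ifi27 and Rsad2), 1 did neither and 1 was untested, and of the 6 without them 3 rose, 0 fell, 2 did neither and 1 was untested. A match is a description of the letters and not evidence of a bound site.

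Of 18 tested immunoproteasome and antigen presentation genes 15 rose and 0 fell (median 3.13; 14 and 0 after rescaling). Psmb8 had 530.2 and 512 TPM in PGCLC_d3, against 0.19 and 0.883 TPM in EpiLC (8.45, SE 0.18, limma adjusted p = 4.17e-10). Psmb9 had 197 and 209 TPM in PGCLC_d3 and 1.39 and 1.83 TPM in EpiLC (6.29), and Psmb10, the third catalytic subunit, 204 and 184 TPM in PGCLC_d3 and 73.3 and 55.1 TPM in EpiLC (1.59). All 3 subunits were higher in both PGCLC_d3 libraries. The PA28 activator genes rose as well. Psme1 had 1522 and 1539 TPM in PGCLC_d3, against 21.9 and 22.6 TPM in EpiLC (6.04), and Psme2 1066 and 1039 TPM in PGCLC_d3, against 40.2 and 43 TPM in EpiLC (4.63). The standard subunits that the immunoproteasome displaces differed little, with Psmb5 at 0.13, Psmb6 at 0.26 and Psmb7 at 0.26 (-0.14, -0.01 and -0.01 after rescaling), and of 14 core genes 0 rose and 0 fell by 1 or more.

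Downstream of the proteasome, the peptide transporter genes Tap1, with 63.5 and 57 TPM in PGCLC_d3 and 1.27 and 0.986 TPM in EpiLC (4.85), and Tap2 (5.14) rose, as did Tapbp, which loads peptides onto class I molecules, with 526 and 522 TPM in PGCLC_d3 and 7.01 and 7.21 TPM in EpiLC (6.02). The class I light chain B2m had 86.7 and 81 TPM in PGCLC_d3, against 37.9 and 29 TPM in EpiLC (1.31), and 201 and 212 TPM in ESC. Among heavy chains RT1-A2 had 50.3 and 54.4 TPM in PGCLC_d3 and 2.1 and 1.86 TPM in EpiLC (4.16), though RT1 genes are near-identical copies whose reads may be split, so their levels are uncertain. Nlrc5, the regulator of class I genes, was at 1.35 and 1.15 TPM in PGCLC_d3 and 0.0747 and 0.036 TPM in EpiLC (1.09, and 0.98 after rescaling). The general chaperones Calr (0.34), Canx (-0.41) and Pdia3 (-0.46) were under the size used.

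Of 19 tested interferon response genes 13 rose and 2 fell (median 3.27; 13 and 3 after rescaling). Irf1, the factor that drives immunoproteasome genes, had 371 and 368 TPM in PGCLC_d3, against 7.81 and 6.71 TPM in EpiLC (5.49). Isg15, a ubiquitin-like modifier, had 151 and 148 TPM in PGCLC_d3 and 2.64 and 2.65 TPM in EpiLC (5.37), and Bst2, which tethers viruses to the cell surface, 91.3 and 95.9 TPM in PGCLC_d3 and 0.259 and 0.603 TPM in EpiLC (6.06). The RNA sensor Ddx58 (5.18), Gbp2 (4.79), Mx2 (4.22), Stat2 (3.64) and Irf7 (3.36) rose with them. Not every member did. Ifi27 had 3.79 and 3.4 TPM in PGCLC_d3, against 24.4 and 20.5 TPM in EpiLC (-2.35), Rsad2, low in both groups, fell (-1.88), and Irf9 (0.77) and Irf3 (0.74) were under the size used. Parp14 (6.25) is among the largest rises, with 95 and 104 TPM in PGCLC_d3 and 0.261 and 0.373 TPM in EpiLC.

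The interferon genes Ifng and Ifnb1 and the receptor genes Ifngr1 and Ifnar1 were looked up after these values were seen. Other interferons and receptor chains are not given, so interferon RNA as a whole was not assessed. Ifng and Ifnb1 were listed at 0 in both groups. Ifngr1 had 10.8 and 9.84 TPM in PGCLC_d3 and 4.28 and 5.33 TPM in EpiLC (0.97), and Ifnar1 16.8 and 15.8 TPM in PGCLC_d3 and 18.6 and 19.13 TPM in EpiLC (-0.20). No interferon is listed among the added factors, and the source of the change was not tested. In the IFITM family, whose close copies may share reads, Ifitm3, a surface marker of early germ cells, had 114 and 132 TPM in PGCLC_d3 and 5.11 and 5.16 TPM in EpiLC (4.33), whereas Ifitm1 (-0.37) and Ifitm2 (-0.83, and -1.10 after rescaling) were lower by less than 1. In ESC, Ifitm3 was at 100 and 119 TPM, close to its level in PGCLC_d3.

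**Figure D4:**
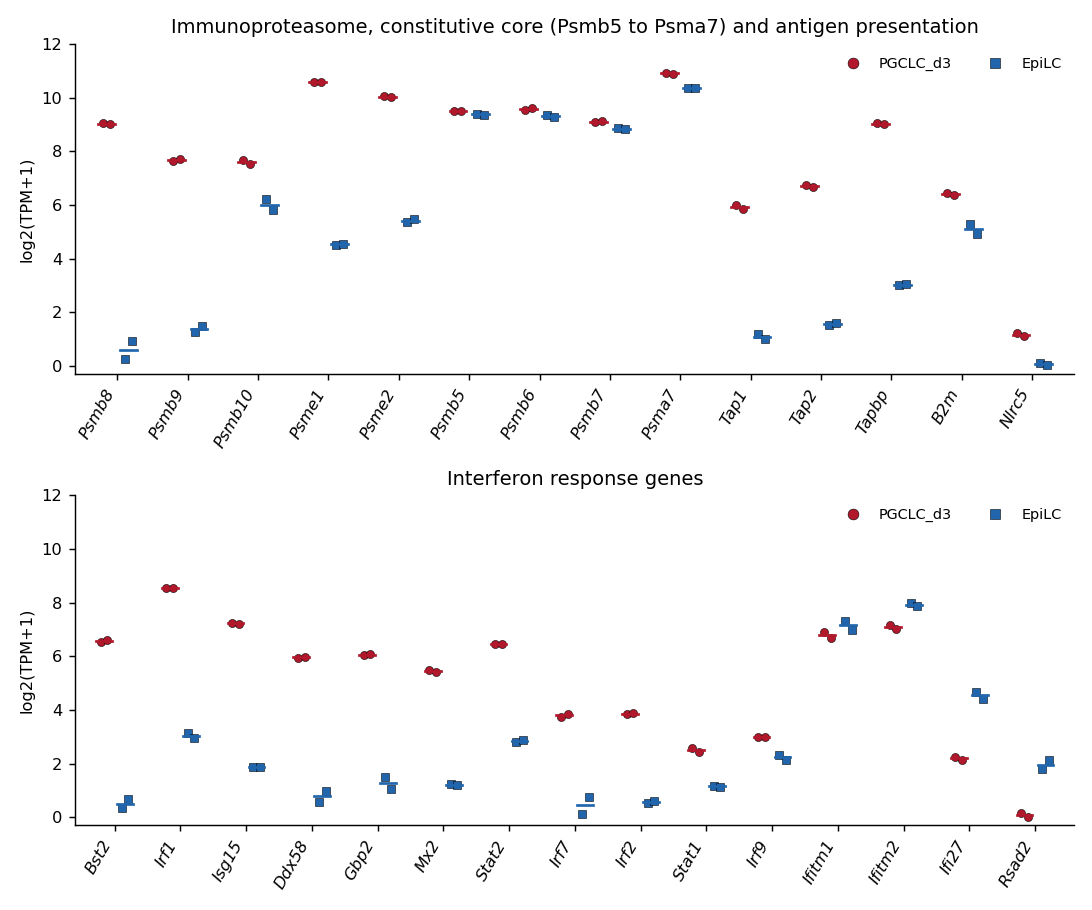
Log2(TPM+1) of immunoproteasome, standard proteasome and antigen presentation genes (top) and of interferon response genes (bottom), PGCLC_d3 as red circles left of EpiLC as blue squares, with short lines at the group means. The standard subunits Psmb5 to Psma7 differ by at most 0.55 on the log2 scale, and Psmb8, Psmb9, Psme1 and Tapbp are far higher in PGCLC_d3.

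RNA of the enzymes that write DNA methylation fell, to 0.0111 of the EpiLC level for Dnmt3b and to 0.302 of it for Dnmt1. Of 16 DNA methylation genes 7 fell and 0 rose (median -0.48; 8 and 0 after rescaling). The DNA methyltransferase genes together held 0.00819% and 0.00763% of all TPM in PGCLC_d3, against 0.340% and 0.355% in EpiLC and 0.142% and 0.135% in ESC. Dnmt3b had 33.8 and 27.6 TPM in PGCLC_d3, against 2666 and 2887 TPM in EpiLC (-6.46), so PGCLC_d3 were also below the 155 and 143 TPM of ESC. The maintenance enzyme Dnmt1 had 43.1 and 44.5 TPM in PGCLC_d3 and 148 and 142 TPM in EpiLC (-1.71), and Cdca7, a partner of the remodeller HELLS, 71.9 and 68.2 TPM in PGCLC_d3 and 231 and 222 TPM in EpiLC (-1.68). Hells itself, at 105 and 110.4 TPM in PGCLC_d3 and 114 and 115 TPM in EpiLC, was under the size used (-0.09). Among genes of demethylation, Tet2 rose, with 10.3 and 11 TPM in PGCLC_d3 and 0.753 and 0.974 TPM in EpiLC (2.65), while Tet1 (-1.13) and Tet3 (-1.74) fell. The TET genes thus moved in different directions.

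Chromatin regulators moved less. Of 23 H3K9 and H3K27 methylation genes 2 rose and 3 fell (median -0.13; 1 and 5 after rescaling). Ehmt2, which encodes the H3K9 methyltransferase G9a, had 147 and 138 TPM in PGCLC_d3 and 66.6 and 64.1 TPM in EpiLC (1.12, and 0.85 after rescaling), and its partner Ehmt1 44.5 and 43.9 TPM in PGCLC_d3 and 74.4 and 75.8 TPM in EpiLC (-0.75, and a fall after rescaling). Ezh2, the H3K27 methyltransferase, had 42.8 and 44.4 TPM in PGCLC_d3 and 89.9 and 91.4 TPM in EpiLC (-1.04). The lysine demethylase Kdm4c fell (-2.20) and Kdm3b rose (1.64). Of 15 genes of the PRC1.6 complex, which silences germline genes, 2 rose and 0 fell, against 18.7% and 10.8% of all tested genes. The risen members were Ring1 (1.67) and Wdr5 (1.29). Within the complex 7 genes were higher and 4 lower at an adjusted p under 0.05 alone. Its DNA-binding subunits E2f6, with 60.8 and 64.6 TPM in PGCLC_d3 and 36.5 and 35.7 TPM in EpiLC (0.78), Mga (-0.05) and Max (-0.48) were all under the size used.

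Genes of late germ cell life went down as the early germ cell genes went up. Of 28 tested members 17 fell and 1 rose (median -1.32; 17 and 1 after rescaling). The promoters of 5 genes are shown because their genes fell and they hold CACGTG, the E-box that the MGA and MAX subunits of PRC1.6 are known to bind. They are again the 40 bases on either side of the E-box in capitals, 5′ to 3′ on the gene's strand, from RefSeq with build GRCr8: Ddx4 at chr2:46015986-46016071 (minus strand), Fkbp6 at chr12:26956035-26956120, Stk31 at chr4:79701577-79701662, Tdrd1 at chr1:265880898-265880983 and the meiosis gene Sycp3 at chr7:24761351-24761457 (plus strand for these 4), the last with a pair of E-boxes.
Ddx4: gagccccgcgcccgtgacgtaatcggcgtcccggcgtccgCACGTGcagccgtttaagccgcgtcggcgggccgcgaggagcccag
Fkbp6: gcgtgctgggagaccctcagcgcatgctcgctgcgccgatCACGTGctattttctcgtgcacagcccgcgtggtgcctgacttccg
Stk31: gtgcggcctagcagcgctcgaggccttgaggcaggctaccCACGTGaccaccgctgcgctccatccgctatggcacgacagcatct
Tdrd1: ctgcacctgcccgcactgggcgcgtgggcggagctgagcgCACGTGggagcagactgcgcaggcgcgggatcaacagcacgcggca
Sycp3: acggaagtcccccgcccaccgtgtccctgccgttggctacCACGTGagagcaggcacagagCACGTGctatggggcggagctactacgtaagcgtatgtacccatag
The E-box stood in the 250 bases before the start of 13 of 26 late germ cell genes with a promoter (50%) and of 6 of 23 meiosis genes (26.1%), against 8.73% of tested genes and 6.18% of all genes with a promoter. CACGTG reads the same on both strands. Of the 13 late germ cell genes with it, 8 fell, 1 rose, 3 did neither and 1 was untested. Of the 13 without it, 6 fell, among them Sohlh2, Dazl and Asz1, 0 rose, 6 did neither and 1 was untested. Here too a match is a description of the letters and not evidence of a bound site. The E2F type letters TCCCGC, searched on both strands, stood in 23.1% of the late germ cell genes and 56.5% of the meiosis genes, against 32.2% of tested genes. GGCGCC, the BMP SMAD type letters, stood in 4 of 14 BMP targets with a promoter (28.6%), against 18% of tested genes. Those 4 rose, and of the 10 BMP targets without the letters 9 rose and 1 was untested.

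The falls ran across the piRNA and RNA granule genes. Ddx4, the helicase VASA of germ granules, had 1.3 and 1.28 TPM in PGCLC_d3, against 162 and 134 TPM in EpiLC (-6.02) and 51.7 and 57.6 TPM in ESC. Fkbp6, a co-chaperone of piRNA loading, had 0.131 and 0.086 TPM in PGCLC_d3 and 26.6 and 21.9 TPM in EpiLC (-4.50). Asz1, another piRNA factor, had 0.896 and 1.03 TPM in PGCLC_d3 and 19 and 17.8 TPM in EpiLC (-3.31). In each case EpiLC carried the clear signal and PGCLC_d3 were near or below 1 TPM. Tex15, which helps to silence transposons, remained at 23.3 and 22.8 TPM in PGCLC_d3, against 130.1 and 129 TPM in EpiLC (-2.44). Tdrd1 (-1.36), Mael (-1.35), Mov10l1 (-1.77) and Piwil2 (-1.60) fell as well. The member that rose was Ddx25, an RNA helicase of spermatids, with 25.1 and 23.7 TPM in PGCLC_d3 and 4.67 and 3.49 TPM in EpiLC (2.33).

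Meiosis genes were split. Of 26 tested members 9 fell and 3 rose (median -0.36; 10 and 3 after rescaling). Rec114, which helps to place meiotic DNA breaks, had 6.35 and 4.54 TPM in PGCLC_d3, against 118 and 115 TPM in EpiLC (-4.20). Sycp3, a backbone protein of meiotic chromosomes, had 1.13 and 0.375 TPM in PGCLC_d3 and 14.6 and 12.8 TPM in EpiLC (-3.10), and Tex12, of the synaptonemal complex, 1.16 and 1.22 TPM in PGCLC_d3 and 23 and 17.3 TPM in EpiLC (-3.26). The risen members were the break enzyme gene Spo11, with 3.77 and 3.98 TPM in PGCLC_d3 and 0.205 and 0.106 TPM in EpiLC (2.08), Mei4 (1.33) and the cohesin gene Stag3 (1.69). Stra8 and Dmc1 were too low to be tested.

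The make-up of the transcript pool changed in a few heavy classes. Genes of the mitochondrial genome held 5.42% and 4.88% of all TPM in PGCLC_d3, against 3.96% and 4.18% in EpiLC, and ribosomal protein genes 9.48% and 9.26% in PGCLC_d3, against 8.28% and 8.12% in EpiLC. COX3 was the most abundant transcript of PGCLC_d3, with 14724 and 12925 TPM, against 8237 and 8000.2 TPM in EpiLC (0.77). By the mean of both libraries ATP6 was the most abundant transcript of EpiLC, with 10652 and 9620.2 TPM in PGCLC_d3 and 9802 and 11159 TPM in EpiLC. Actb, which encodes actin, was close between the groups at 8439 and 8219 TPM in PGCLC_d3 and 8652 and 8421 TPM in EpiLC (-0.04). Nuclear genes of oxidative phosphorylation kept a like share, 1.92% and 1.95% in PGCLC_d3 and 1.94% and 1.92% in EpiLC, and of 40 such genes 0 rose and 1 fell (0 and 3 after rescaling).

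Ferritin, the iron store of the cell, held a smaller share of the transcript pool in PGCLC_d3. Its genes held 0.555% and 0.564% of all TPM in PGCLC_d3, against 1.96% and 1.82% in EpiLC and 1.64% and 1.58% in ESC. The heavy chain Fth1 had 1407 and 1538 TPM in PGCLC_d3, against 9475 and 8730.4 TPM in EpiLC (-2.63). The light chain Ftl1 had 4049.8 and 4005 TPM in PGCLC_d3 and 9809 and 9120.1 TPM in EpiLC (-1.23), and the iron exporter Slc40a1 74.7 and 65.4 TPM in PGCLC_d3 and 16.7 and 17.4 TPM in EpiLC (1.97). Ferritin genes have many processed copies that may share reads, so their levels are uncertain. Gstp1, a glutathione transferase, had 360.0 and 338 TPM in PGCLC_d3 and 4132 and 4036 TPM in EpiLC (-3.55), and Prdx1, a peroxide scavenger, 1932 and 2003 TPM in PGCLC_d3 and 5212 and 5194 TPM in EpiLC (-1.40). Both are among the 10 most abundant transcripts of EpiLC. Further genes that the antioxidant factor NRF2 is known to control were looked up after these values were seen, so no count is drawn from them. Hmox1, the heme oxygenase that frees iron, had 189 and 205 TPM in PGCLC_d3 and 1693 and 1424 TPM in EpiLC (-2.97). The glutathione synthesis genes Gclc (-3.00) and Gclm (-2.05), Nqo1 (-2.05), Srxn1 (-3.61) and Txn1 (-1.53) also fell, whereas Keap1, which holds NRF2 in check, and Gpx4 were under the size used (0.06 and 0.09). The metallothionein gene Mt2A had 74.7 and 81.5 TPM in PGCLC_d3 and 866 and 907 TPM in EpiLC (-3.49).

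**Figure D5:**
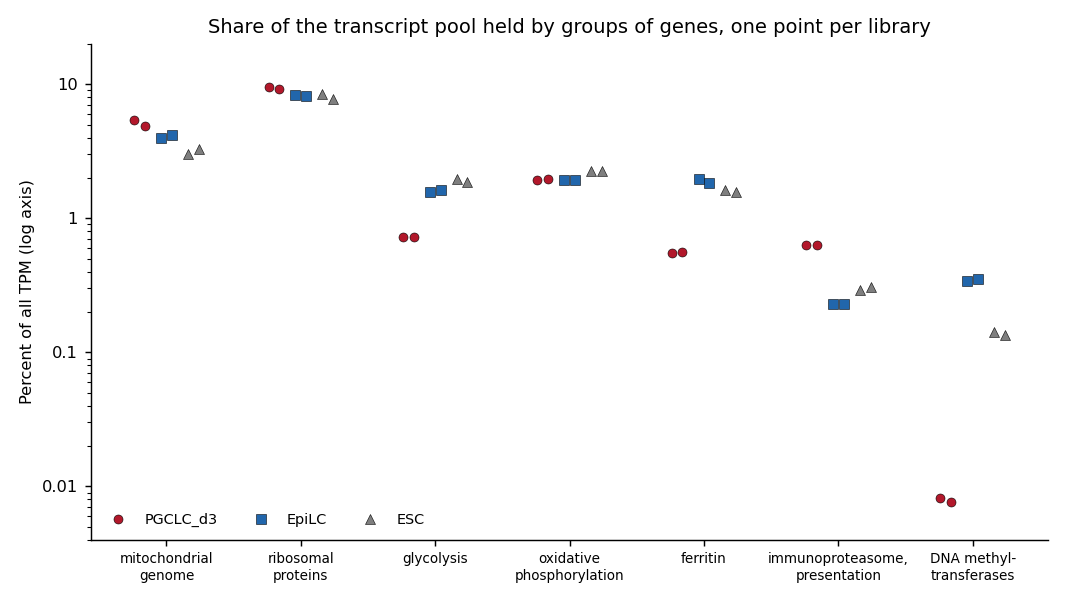
Percent of all TPM (vertical log axis) held by 7 groups of genes, 1 point per library, with PGCLC_d3 as red circles, EpiLC as blue squares and ESC as grey triangles from left to right. Ferritin, glycolysis and DNA methyltransferase genes lie lowest in PGCLC_d3, the immunoproteasome and mitochondrial genome genes highest.

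Glycolysis genes held 0.722% and 0.725% of all TPM in PGCLC_d3, against 1.58% and 1.62% in EpiLC. Of 26 members 13 fell and 4 rose (median -1.02; 16 and 3 after rescaling). The falls included the glucose transporter and enzymes of several later steps. Slc2a1, the main glucose transporter, had 234 and 195 TPM in PGCLC_d3, against 810.2 and 908 TPM in EpiLC, and fell. Pgk1 had 373 and 369.9 TPM in PGCLC_d3 and 1523 and 1550.0 TPM in EpiLC (-2.04), and Eno1 879 and 893 TPM in PGCLC_d3 and 2777 and 2795 TPM in EpiLC (-1.65). At the last step the lactate dehydrogenase subunits moved apart. Ldha had 741 and 732 TPM in PGCLC_d3 and 2029 and 2026 TPM in EpiLC (-1.46), and Ldhb 1213 and 1218 TPM in PGCLC_d3 and 274 and 282 TPM in EpiLC (2.12). The regulatory kinase Pfkfb3 rose (3.20), and Pkm (-0.90, and -1.17 after rescaling) and Aldoa (-0.61) were under the size used.

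Other biosynthetic routes also held more fallen than risen genes. Of 25 cholesterol synthesis genes 5 fell and 2 rose (median -0.46; 8 and 1 after rescaling). Of 21 threonine, serine and one-carbon genes 5 fell and 1 rose (median -0.52; 6 and 1 after rescaling). Gldc, which breaks down glycine, had 13.5 and 12.7 TPM in PGCLC_d3, against 108 and 102 TPM in EpiLC (-2.90), and its partner Amt fell too (-1.45).

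The G1 phase genes showed an exchange of cyclins. Ccnd2, which encodes cyclin D2, had 319 and 347 TPM in PGCLC_d3, against 3.2 and 6.11 TPM in EpiLC (5.93). Ccnd1 had 15.5 and 14.9 TPM in PGCLC_d3 and 70.8 and 78.7 TPM in EpiLC (-2.22), and Ccne1, the cyclin of S phase entry, 33.7 and 35.2 TPM in PGCLC_d3 and 279 and 256 TPM in EpiLC (-2.92). Ccnd3 differed little, at 165 and 159 TPM in PGCLC_d3 and 178 and 154 TPM in EpiLC (-0.03). Cyclin D2 was thus the most abundant D-type cyclin transcript in PGCLC_d3 and the least abundant in EpiLC. The inhibitors Cdkn1c (2.10) and Cdkn1b (1.10) rose, Cdkn1b by 0.86 after rescaling. Of 23 G1 genes 5 rose and 6 fell (4 and 7 after rescaling). Of 31 DNA replication genes 0 rose and 2 fell, the licensing genes Cdc6 (-1.74) and Orc1 (-1.53), with 0 and 4 after rescaling. Of 27 genes of G2 and cell division 3 rose, led by the centromere histone gene Cenpa (2.61), and 0 fell (2 and 1 after rescaling). In the MYC family Myc fell (-1.21), Mycl rose, with 59 and 56.8 TPM in PGCLC_d3 and 4.74 and 5.37 TPM in EpiLC (3.29), and Mycn, the most abundant of the 3, differed little (-0.04). Of 20 p53 targets 2 rose and 5 fell (median -0.25; 2 and 6 after rescaling).

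Cell surface genes changed in kind. Of 21 cadherin, claudin and adhesion genes 8 fell and 6 rose (9 and 5 after rescaling). Cdh1, the E-cadherin of epithelia, had 106 and 102 TPM in PGCLC_d3, against 521 and 584 TPM in EpiLC (-2.40). Cdh3, P-cadherin, had 99.6 and 104 TPM in PGCLC_d3 and 1.49 and 1.56 TPM in EpiLC (5.35), and Cdh2, N-cadherin, 12.2 and 13.7 TPM in PGCLC_d3 and 0.933 and 0.84 TPM in EpiLC (2.88). In PGCLC_d3 Cdh1 and Cdh3 therefore lay at like TPM, while in EpiLC Cdh1 led by far. Podxl, the anti-adhesive sialomucin of the epiblast lumen, had 6.09 and 5.25 TPM in PGCLC_d3 and 128 and 150.2 TPM in EpiLC (-4.39), and the claudin genes Cldn6 (-1.87), Cldn7 (-1.73) and Cldn4 (-1.69) fell. Of 21 integrin and tetraspanin genes 9 rose and 3 fell (median 0.47; 7 and 3 after rescaling). Tspan8 had 400.4 and 380.4 TPM in PGCLC_d3 and 0.539 and 1.85 TPM in EpiLC (7.54), and Itga6, a laminin receptor chain, 3.27 and 3.52 TPM in PGCLC_d3 and 32.5 and 31.1 TPM in EpiLC (-2.90).

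Beyond the lists, the 15 largest rises with a mean of at least 10 TPM held Isl2, a homeobox factor known from motor neurons, with 125 and 123 TPM in PGCLC_d3 and 0.345 and 0.402 TPM in EpiLC (6.51). Foxi3, a forkhead factor of ectoderm, had 117 and 116 TPM in PGCLC_d3 and 0.599 and 0.332 TPM in EpiLC (6.33), and Mogat2, an enzyme of fat synthesis, 149 and 143 TPM in PGCLC_d3 and 0.412 and 0.96 TPM in EpiLC (6.47). None of these genes belongs to the germ cell list. The small heat shock gene Hspb1 had 324 and 296 TPM in PGCLC_d3 and 2.43 and 0.988 TPM in EpiLC (6.90).

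Among the 15 largest falls, Tex19.1, a germ cell and placenta gene that holds back transposons, had 1.63 and 1.4 TPM in PGCLC_d3, against 167 and 124 TPM in EpiLC (-5.85) and 319 and 311 TPM in ESC. Rpl39l, a germ cell form of a ribosomal protein, had 15.9 and 16.3 TPM in PGCLC_d3 and 887 and 724 TPM in EpiLC (-5.55). Both have close copies that may share reads. Osgin1, an oxidative stress response gene, had 0.852 and 0.78 TPM in PGCLC_d3 and 81.5 and 75.1 TPM in EpiLC (-5.45). Arhgdib fell (-5.69), as did Hs6st2, which sulfates heparan chains (-5.29), Trim80 (-6.00), Fcrla (-5.96) and Wfdc15a (-5.27), the last listed at 0 in both PGCLC_d3 libraries.

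Genes that were all but silent in one group and clearly present in the other were counted without a test. The bounds were under 0.5 TPM in both libraries of one group and at least 10 TPM in both of the other. Of 22228 named genes, 61 were present in PGCLC_d3 and 36 in EpiLC by these bounds. The count was not repeated on rescaled values, on which 1915 tested genes rose and 1912 fell. The 61 include Prdm1, Prdm14, Cxcr4, Nr0b1, Nr5a2, Fzd10, Rspo3, Sp5 and Tbxt, the homeobox genes Irx1, Irx3 and Nkx6-2, and the interferon-related genes Parp14, Oasl2, Uba7 and Ube2l6. The 36 include Fgf4, Foxd3, Zic5, Sohlh2, Dazl and Fkbp6.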

How the data were processed

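The 8 libraries fall into 4 groups of 2, and titles gave both group and replicate number. Per the labels' protocols, a PicoPure kit gave the RNA, and SMART-Seq v4 and KAPA Hyper Prep kits the libraries, and the labels do not say that counting used strand, so overlapping genes on opposite strands cannot be told apart. Per the submitters' processing notes, bcl2fastq 2.20, cutadapt 1.1.6, HISAT2 2.1.0, featureCounts and Subread 1.6.5 were used with genome build rn7. The authors deposited log2(TPM+1) per gene and library; the TPM given here is 2 to that power minus 1. The table holds 22228 named genes and 11066 rows with an empty name, which were left out. TPM over named genes summed to 982639 to 984135 per library.

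Genes that reached TPM 1 in 2 or more of the 8 libraries were tested with limma 3.58.1 under R 4.3.3 (lmFit, then eBayes with a trend, 2-sided, Benjamini-Hochberg adjustment over 13571 genes). All 4 groups were fitted together, which left 4 residual degrees of freedom, a median of 5.46 prior degrees of freedom and a residual SD of 0.104 at the median gene, and the fit was tested on simulated data. Errors of differences are limma standard errors. No count model was used, since TPM keeps no read totals. Depth was compared through the smallest steps between TPM values of a gene.

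The comparison and the 46 gene lists were chosen with earlier results of these data known. Lists are described by counts and medians, with no list test. Genes were named by a rule: of each list those with the largest changes, those whose role opens it and those counted as not passing, then the 15 largest rises and falls whose higher group averaged 10 TPM or more, and the 10 most abundant transcripts of each group. A few genes named by it are not reported here. Alternatives were median-of-ratios rescaling, quantile normalization, a pseudocount of 0.1, a minimum TPM of 5, no minimum, a fit of 4 libraries only, a replicate block and leaving out each library. Promoter sequence came from the RefSeq table of build GRCr8, which gave 27457 genes a promoter, matched by symbol; a gene with several promoters counts once. Since that build differs from the one of the files, no other coordinates are given. The correlation of same-numbered libraries' deviations from their group means was 0.0147 between PGCLC_d3 and EpiLC, so the numbers were not taken to pair libraries.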

Additional observations from a re-analysis of the deposited data

How the results depend on the processing

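Of 215 named genes that rose or fell, 209 kept that call under every alternative. Sall4 (0.91), Ehmt2 (0.85), Nlrc5 (0.98), Nbr1 (0.99) and Cdkn1b (0.86) were under 1 after median-of-ratios rescaling, as were Kitlg (1.00 when rounded), Nlrc5 (0.88) and Cdkn1b (0.77) after quantile normalization, and Cdkn1b without EpiLC replicate 1 (0.98) and without PGCLC_d3 replicate 1 (0.96). The sign turned for genes that had not risen or fallen: Gpx4 (-0.18), Keap1 (-0.20), Psmb5 (-0.14), Psmb6 (-0.01) and Psmb7 (-0.01) after median-of-ratios rescaling, and Actb (0.21) and Keap1 (-0.25) after quantile normalization. Leaving out a library turned ATP6 (0.05 without EpiLC replicate 2 and 0.03 without PGCLC_d3 replicate 2), Ccnd3 (0.07 without EpiLC replicate 1) and Gpx4 (-0.01 to 0.19 over the 4 libraries left out in turn). The cause was not tested.

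Numbers of genes that rose and fell were 1915 and 1912 after median-of-ratios rescaling, 1863 and 1939 after quantile normalization, 3095 and 1870 with a pseudocount of 0.1, 2076 and 1194 with a minimum TPM of 5, and 2531 to 2594 and 1466 to 1493 when 1 library was left out. With the replicate block they stayed at 2542 and 1470, and at an adjusted p under 0.05 alone they were 6461 and 3750. A lone library left in a group was assumed to vary like the others. Genes silent in one group and present in the other numbered 125 (PGCLC_d3) and 66 (EpiLC) with a lower bound of 1 TPM, and 31 (PGCLC_d3) and 12 (EpiLC) with an upper bound of 20 TPM. Of 1518 list values recomputed, counts and medians together, 190 moved. Among the 1012 list counts 43 moved by more than 1.5 times. The others were medians, which were held to have moved when the shift reached their SD over pairs of libraries. List medians in the text are those before rescaling. After it that of imprinted genes went from 0.18 to -0.06, and that of lysosome and autophagy genes from 0.45 to 0.18. With 2 libraries a group, and depth known only as a ratio between libraries, differences of genes under about 1 TPM are the least certain, and no test for outlying libraries was possible.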

Other observations

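Imprinted genes, of which only the maternal or only the paternal copy is normally read, moved in both directions. Of 24 tested members 9 rose and 8 fell in PGCLC_d3 (median 0.18; 9 and 9 after rescaling), above the 18.7% and 10.8% of all tested genes. Peg3, a zinc finger gene read from the paternal copy, had 412 and 443 TPM in PGCLC_d3, against 12 and 13.2 TPM in EpiLC (4.98) and 8.55 and 10.9 TPM in ESC. Phlda2, a brake on placental growth, had 12.9 and 9.86 TPM in PGCLC_d3 and 0.171 and 0.533 TPM in EpiLC (3.20). Mest had 273 and 269.6 TPM in PGCLC_d3 and 2066 and 2015 TPM in EpiLC (-2.91), and Gnas 32.9 and 32.1 TPM in PGCLC_d3 and 249.9 and 261 TPM in EpiLC (-2.94). In each of these 4 genes the groups did not overlap, which also held for genes with small differences. TPM per gene does not say which parental copy was read.

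Basement membrane and matrix genes rose in 4 and fell in 5 of 19 (median -0.52; 2 and 8 after rescaling). Nid1, the nidogen that links laminin to collagen, had 1.65 and 1.48 TPM in PGCLC_d3, against 63.4 and 57.2 TPM in EpiLC (-4.58). Spp1 (-2.92) and the fibronectin gene Fn1 (-1.72) fell, and the laminin chain gene Lamb2 rose (2.13). The fibroblast markers given in the report were lower in PGCLC_d3 as well, and their part in the matrix values was not tested. Of 22 lysosome and autophagy genes 4 rose and 3 fell (median 0.45; 3 and 5 after rescaling). The autophagy receptors moved apart, with Sqstm1 at 207 and 206 TPM in PGCLC_d3 and 1129 and 1079 TPM in EpiLC (-2.41) and Nbr1 at 101 and 103 TPM in PGCLC_d3 and 42.2 and 42.2 TPM in EpiLC (1.26, and 0.99 after rescaling). Map1lc3a, which coats autophagosomes, rose (2.67), and Calcoco2, at 2.55 and 0.683 TPM in PGCLC_d3 and 26.9 and 23.5 TPM in EpiLC (-3.42), was at 2016 and 2256 TPM in ESC. Of 21 heat shock and chaperone genes 3 rose and 3 fell (2 and 3 after rescaling), with Hspb1 alone among them rising by more than 2. Of 22 ATF4 targets and tRNA synthetase genes 1 rose and 2 fell.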
